A study of Drosophila melanogaster with 5 samples.

Results

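Serpins are a family of proteins, many of which inhibit serine proteases. In Drosophila melanogaster the family was described in males of the Oregon-R strain raised at low background radiation (LB-flies) and at natural background radiation (NB-flies). The serpins were chosen by gene symbol, as all genes named Spn followed by a cytological position, plus nec (necrotic). The gene table held 28 such genes, of which 27 had at least 1 transcript in the deposited counts. These 27 genes had 49 of the 34111 transcripts counted, and 29 of them, from all 27 genes, were among the 17337 transcripts with at least 10 reads summed over the libraries, which were tested. Spn28Db was not analysed here, and Acp76A, a serpin gene of the accessory gland with another kind of name, falls outside the rule.

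LB-flies developed underground, in the low-background laboratory DULB-4900, and NB-flies in a laboratory on the ground. Each of the 3 LB and 2 NB libraries was made from poly(A) RNA of 25 whole males of 1 vial. No transgene, mutation or treatment other than the site is named for either group. Both were kept on the same medium with propionic acid and developed for 14 days at 24 °C in the dark. The flies were 2 to 3 days old, and 3 days old by the labels. The groups therefore differed in the site as a whole, and radiation cannot be told apart from other features of the site. By the authors' account the experiment was done a single time. Whether the vials of a group were independent cultures is not stated, so that p-values measure the spread between vials and not between runs of the experiment.

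An inhibitory serpin works as a bait. The protease cuts an exposed loop of the inhibitor, stays covalently bound to it and is lost with it, so that 1 serpin molecule is used up for each protease molecule. In insects the blood, or hemolymph, holds cascades of serine proteases that end in the cleavage of Spätzle, the ligand of the Toll receptor, or in the activation of prophenoloxidases, the enzymes of melanin formation, and serpins restrain both. Another set of serpins is secreted by the male accessory gland into the seminal fluid, which also carries proteases.

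The libraries held 23027411 to 26036113 reads assigned to 1 transcript. An approximate upper limit of 3 reads was taken for a count of 0. It corresponds to 0.115 to 0.13 CPM (reads scaled to a common library total) in a library. Such limits cover counting error only. The replicate 1 library of LB-flies stood apart in genes of the accessory gland: 16 of 18 marker genes of that gland had their lowest level in it, against 22.5% of all tested transcripts. Among the markers of females and ovaries Yp1, Vm26Aa, Vm26Ab and osk were at 0 in every library. Yp2 had at most 12 reads in any library and Cp15, an eggshell gene, had 102 to 161 reads. The male marker roX2 had 335 to 471 reads and Mst98Ca 22624 to 29224, but roX1 had only 0 to 4 and dj 3 to 13. Reads that matched several transcripts were left uncounted, so that a count at or near 0 does not show that a gene was silent. The 10 female and ovary markers summed to 10.2, 7.54 and 8.01 CPM in LB-flies and 5.72 and 6.37 CPM in NB-flies, and all 4 that were tested had a log2 fold change above 0. The 6 male markers, most of them genes of the testis, summed to 1206, 1296 and 1213 CPM in LB-flies and 1022 and 927 CPM in NB-flies. Both the female and the male sum were thus higher in all 3 LB libraries. Most of the male sum came from Mst98Ca, with 1116, 1215 and 1132 CPM in LB-flies and 962 and 868 CPM in NB-flies. Of the 5 male markers tested, 4 had a log2 fold change above 0 and 1 below. The markers of hemocytes, the blood cells, summed to 24.3 to 45.7 CPM in LB-flies and 49.7 and 47.9 CPM in NB-flies, with 0 to 4 reads of Hml. Those of the fat body, a source of hemolymph proteins, summed to 366 to 564 in LB-flies and 614 and 574 in NB-flies, with Fbp1 at 0. Both sums were lower in all 3 LB libraries, but most of the fat body sum came from Apoltp. Without this gene it was 80.0, 109 and 198 CPM in LB-flies and 153 and 129 CPM in NB-flies, and 9 of 16 tested fat body transcripts had a log2 fold change above 0. The part of these markers in the results on serpins was not tested. In RNA of whole flies, fewer cells of a type and less RNA in each cell cannot be told apart.

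Because a read that matched several transcripts was left uncounted, the count of a serpin stands for the bases that only 1 of its transcripts covers. Of the 49 serpin transcripts, 19 had no read in any library (38.8%, against 42.7% of all transcripts). In the Ensembl annotation, which gives the same start and end for all 28 genes, 19 serpin transcripts have no exon base of their own, and their number equalled the number of transcripts at 0 in 27 of 27 genes. Spn42Da, which makes serpins with different reactive loops and a furin inhibitor among them from a single gene, was the extreme case, with 10 of 11 transcripts at 0. Its count, like those of the 10 other genes with more than 1 transcript, therefore says little about the level of the whole gene. The remaining transcript that was not tested belonged to Spn42De and had 4 reads in all.

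Genes on the opposite strand left serpin counts in place. Spn53F lies with all of its 1279 exon bases under an antisense RNA gene, and it was counted all the same. Of 128 genes that lay wholly under antisense genes 78.1% had at least 10 reads, against 0.275% of 364 genes wholly under a gene of the same strand and 82.3% of 11518 genes under no other gene, so that the counting separated the strands. Exon bases shared with a neighbour on the same strand were found in 3 serpin genes: 63 bases of both Spn42Dc and Spn42Dd, and 44 bases of Spn28Da.

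Levels were compared between genes as CPM, scaled by the TMM method, per kilobase of exon, for the 16 genes with a single transcript. They spanned 988-fold. Spn28F and Spn77Bb, both found in seminal fluid, were the most abundant at 695 and 568 CPM per kilobase over all libraries. Spn43Ab followed with 380, nec with 348, Spn28Dc with 230 and Spn88Eb with 211. The order differed between libraries: in LB replicate 1 Spn28Dc led with 421 and Spn88Eb followed with 338, while Spn28F had 206.5 and Spn77Bb 161. In both NB libraries Spn88Eb, with 91.9 and 65.3, lay below Spn42Dd, with 148.5 and 106. At the other end stood Spn43Aa with 7.02, Spn85F with 4.01 and Spn100A with 0.704. The same 6 leading genes held 82.3% of all reads counted on serpins, so that the sum over the family follows few of its members. This sum was 0.334%, 0.423% and 0.555% of the counted reads in LB-flies and 0.366% and 0.309% in NB-flies, and the groups overlapped.

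**Figure D1:**
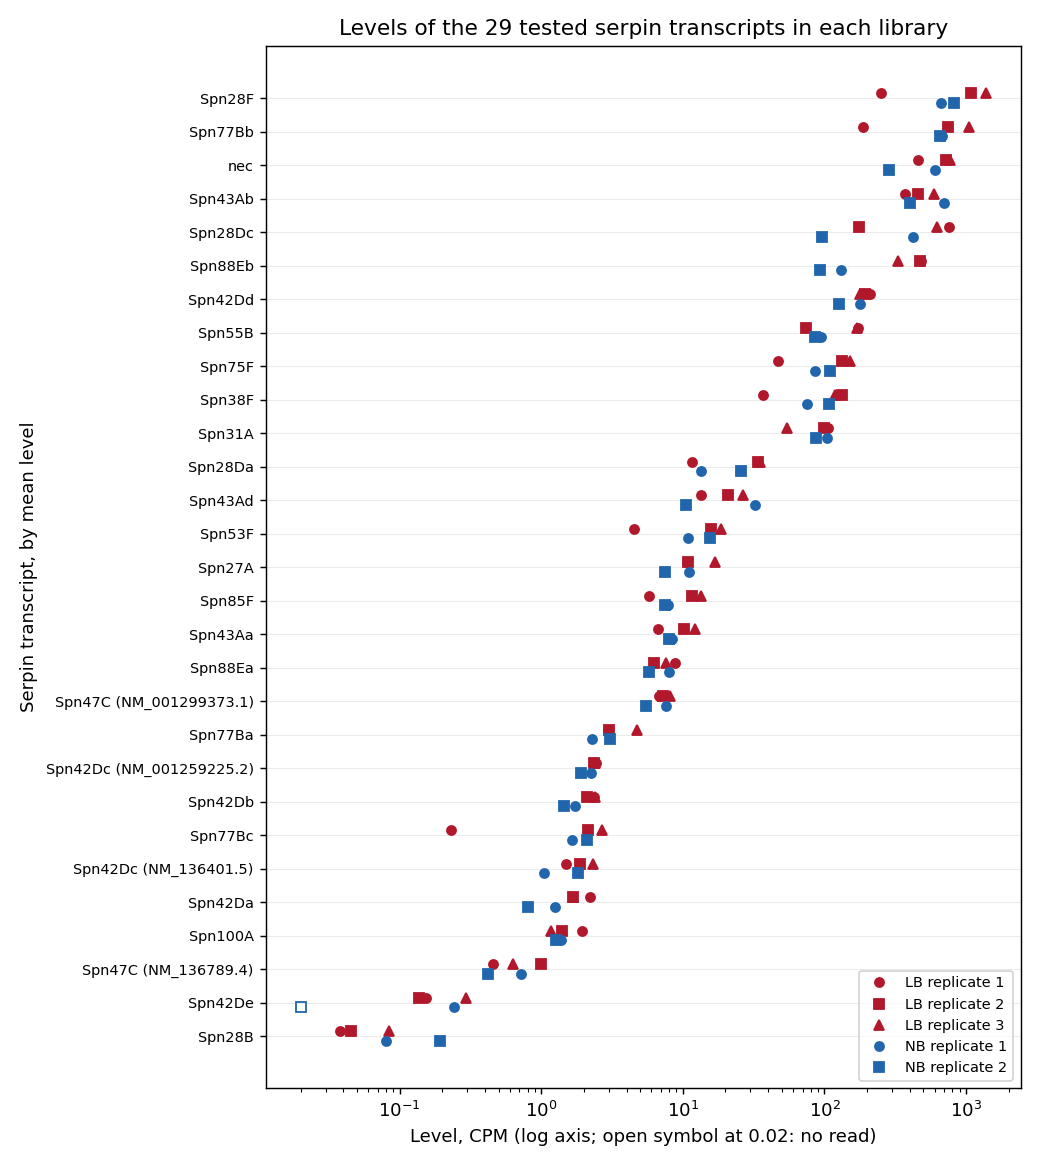
Level of each tested serpin transcript in every library, on a log axis of CPM, with LB-flies in red and NB-flies in blue. Spn28F, Spn77Bb, nec, Spn43Ab, Spn28Dc and Spn88Eb hold 82.3% of the serpin reads, and among these 6 only Spn88Eb has all LB libraries above both NB libraries.

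No serpin transcript differed between LB-flies and NB-flies in edgeR's quasi-likelihood test at a Benjamini-Hochberg adjusted p under 0.05 (0 of 29), as was true of all tested transcripts (percent called 0, smallest adjusted p 0.175). At an unadjusted p under 0.05, 2 of 29 passed, Spn88Eb and Spn42Da, both higher in LB-flies; the share of 6.90% was close to the 7.57% of all transcripts, made up of 3.91% with a higher and 3.66% with a lower level at low background. DESeq2, which the study used, called 1 serpin transcript, Spn88Eb, beside 0.438% of all transcripts, and limma-voom called 0 of 29 and 0 of 17337. The libraries of the groups did not overlap for 4 of 29 serpin transcripts (13.8%), against 27.9% of all transcripts. In all 4 of these, from Spn88Eb, Spn42Da, Spn42Db and Spn42Dc, the LB libraries were above the NB libraries (14.8% of all transcripts), and in 0 below (13.1%).

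The log2 fold change was above 0 for 22 of 29 serpin transcripts, or 75.9%, against 47.4% of all transcripts. The count was 25 of 29 without LB replicate 1 and 25 of 28 without NB replicate 1. It was 20 of 29 without LB replicate 2, and 20 of 28 without LB replicate 3 or without NB replicate 2. With replicate blocks in the fit it was 20 of 29 by repeat number and 19 of 29 by the number in the library name. The share over all transcripts lay between 46.3% and 51.3% in these settings. The median log2 fold change was 0.27 over the serpins and -0.02 over all transcripts. Most differences were small: 21 of 29 were under 0.5 in size and 27 under 1. These counts describe transcripts that share libraries and neighbouring genes and carry no test. The serpins were also among the more variable transcripts. The highest library exceeded the lowest by 2.35-fold in the median over the 28 serpin transcripts with a read in every library, and by 1.74-fold over 16695 transcripts of the whole table, and the difference was over 2-fold for 67.9% of the serpins and 39.1% of all. Without LB replicate 1 the medians were 1.85-fold and 1.6-fold, and the shares 46.4% and 30.9%.

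**Figure D2:**
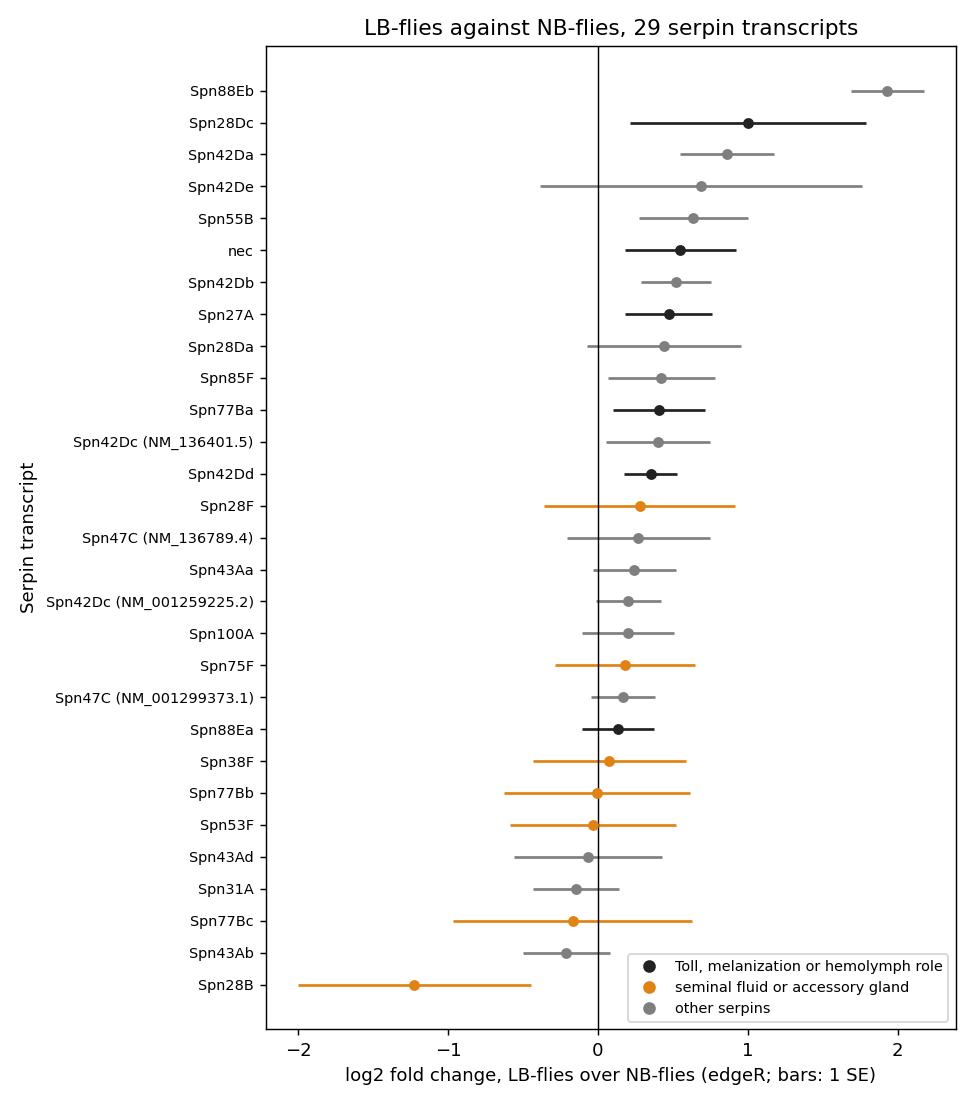
Log2 fold change of LB-flies over NB-flies for the 29 tested serpin transcripts, with the standard error as a bar and lists of members by colour. Spn88Eb stands at 1.93, while 21 of the 29 lie within 0.5 of 0.

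Spn88Eb had the largest difference of the family. The gene lies at 3R:15206703-15208762 (dm6, minus strand), with 3 exons and 1431 exon bases that no other gene overlaps. Spn88Eb had 483, 473 and 332 CPM in LB-flies, against 132 and 93.4 CPM in NB-flies, from 12651, 10401 and 7880 reads in LB-flies and 3265 and 2435 reads in NB-flies. All LB libraries were thus well above both NB libraries, and each group was even within itself, with its highest library 1.45-fold above its lowest in LB-flies and 1.41-fold in NB-flies. Spn88Eb averaged 429 ± 84.3 CPM in LB-flies (SD, n = 3) and 112 ± 26.9 CPM in NB-flies (SD, n = 2). The log2 fold change was 1.93, with a standard error (SE) of 0.25. The unadjusted p of 1.79e-04 ranked 7 of 17337 transcripts, and the adjusted p in edgeR's test was 0.443. In DESeq2 the log2 fold change was 1.94 and the adjusted p 1.5e-08. Without any 1 of the libraries the log2 fold change stayed between 1.70 and 2.21 in edgeR, and DESeq2 called Spn88Eb in all 5 of these fits, with adjusted p of 0.00167 or lower. In 2 of these fits a single NB library was left, whose spread was taken to be that of the LB libraries.

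Spn88Ea lies 255 bases away at 3R:15203069-15206447 on the same strand. It restrains Toll signalling and takes part in the unfolding of the wing. Spn88Ea had 8.82, 6.27 and 7.54 CPM in LB-flies, against 8.02 and 5.76 CPM in NB-flies. The groups overlapped, and the log2 fold change was 0.13 (SE 0.24). The ratio of Spn88Eb to Spn88Ea, not scaled by length, was 54.8, 75.4 and 44.0 in LB-flies and 16.4 and 16.2 in NB-flies. Spn88Ea has 2 transcripts, and its count stands only for the bases that 1 of them alone covers. The ratio can thus be compared between libraries, but its size does not compare the levels of the whole genes. With 10 ways to divide 5 libraries into 3 and 2, no exact permutation test of such a single value can reach a p under 0.1.

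**Figure D3:**
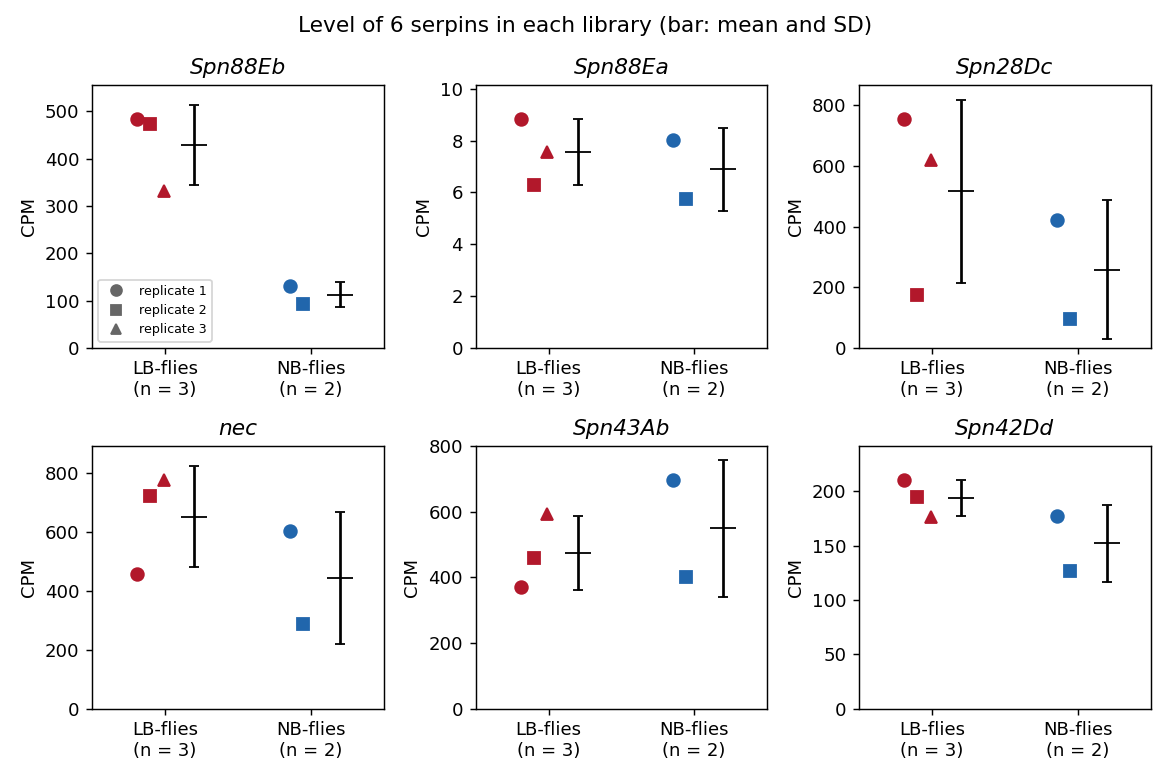
CPM of 6 serpins in every library, with LB-flies left of NB-flies, the replicate number as the marker, and the mean and SD beside the points. Spn88Eb has 332 to 483 CPM in LB-flies, against 93.4 and 132 CPM in NB-flies, while the libraries of the other 5 overlap between the groups.

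Of the serpins with a described role in the Toll and melanization cascades or in hemolymph, 6 were tested. All 6 had a log2 fold change above 0, with a median of 0.44, but 0 of 6 passed an unadjusted p under 0.05, and all 6 overlapped between the groups. Without the NB library of replicate 2, 5 of 6 were above 0 and the median was 0.17. Their summed level was 1443, 1110 and 1600 CPM in LB-flies and 1222 and 524 CPM in NB-flies.

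The serpin nec restrains the branch of the Toll pathway that runs through the protease Persephone. It had 456, 720 and 775 CPM in LB-flies, against 603 and 285 CPM in NB-flies. Its lowest value was an NB library, and the other NB library lay among the LB libraries. The log2 fold change was 0.55 (SE 0.37, adjusted p = 0.704 in edgeR's quasi-likelihood test), with 0.11 without NB replicate 2 and 1.20 without NB replicate 1.

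Spn28Dc, which limits melanization after wounding, varied most among the abundant serpins outside the seminal set. It had 754, 175 and 619 CPM in LB-flies, against 421 and 95.4 CPM in NB-flies. The spread within each group, 4.32-fold in LB-flies and 4.41-fold in NB-flies, was larger than the difference of the means. The log2 fold change was 1.00 (SE 0.79, adjusted p = 0.745 in edgeR's quasi-likelihood test), 0.28 without NB replicate 2 and 2.45 without NB replicate 1.

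Spn27A restrains the protease that activates prophenoloxidase in the hemolymph and, in the egg, the protease Easter. It had 10.7, 10.9 and 16.9 CPM in LB-flies, against 11.1 and 7.44 CPM in NB-flies. LB replicate 3 was the highest library and NB replicate 2 the lowest. The log2 fold change was 0.47 (SE 0.29), with 0.21 without LB replicate 3 and 0.21 without NB replicate 2. Spn77Ba, which prevents melanization in the tracheae, had 2.94, 3.00 and 4.76 CPM in LB-flies, against 2.30 and 3.07 CPM in NB-flies. Here too the highest value was LB replicate 3, and the log2 fold change was 0.41 (SE 0.31).

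Spn42Dd is a negative regulator of Toll activation and belongs to a row of 5 serpin genes within 2R:6875906-6888262. It had 211, 195 and 177 CPM in LB-flies, against 177 and 127 CPM in NB-flies. The lowest LB library and the highest NB library were nearly equal, and the log2 fold change was 0.35 (SE 0.18). At the far end of the row, the counted transcript of Spn42Da had 2.22, 1.68 and 1.69 CPM in LB-flies, against 1.25 and 0.806 CPM in NB-flies. These levels rest on 37 to 58 reads in LB-flies and 21 and 31 reads in NB-flies. The log2 fold change was 0.86 (SE 0.31), with an unadjusted p of 0.0324 and an adjusted p of 0.625 in edgeR's quasi-likelihood test.

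Spn42Db had 2.37, 2.09 and 2.40 CPM in LB-flies, against 1.73 and 1.46 CPM in NB-flies, a log2 fold change of 0.52 (SE 0.23). Spn42Dc had 2 tested transcripts. The first, NM_136401.5, had 1.49, 1.86 and 2.32 CPM in LB-flies, against 1.05 and 1.80 CPM in NB-flies (log2 fold change 0.40, SE 0.35), and overlapped between the groups. The second, NM_001259225.2, had 2.44, 2.36 and 2.40 CPM in LB-flies, against 2.26 and 1.92 CPM in NB-flies (log2 fold change 0.20, SE 0.22), so that the groups were apart but the gap was small. The tested transcript of Spn42De had 4, 3 and 7 reads of its own in LB-flies and 6 and 0 reads in NB-flies, and no fold is given. Of the 5 genes only Spn42Dd has a single transcript, so that levels along the row cannot be compared.

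A second row of 4 genes within 2R:7147692-7158241 holds Spn43Aa, Spn43Ab, Spn43Ad and nec. Spn43Ab, whose gene ends 95 bases from that of Spn43Ad, had 372, 458 and 594 CPM in LB-flies, against 697 and 402 CPM in NB-flies. The highest value was an NB library, and the log2 fold change was -0.21 (SE 0.29). For Spn43Ad the NB libraries differed 3.07-fold between themselves and enclosed all LB libraries (log2 fold change -0.07), and Spn43Aa had a log2 fold change of 0.24. Without NB replicate 1 all 4 genes of the row were above 0, with 0.25 for Spn43Ab and 0.97 for Spn43Ad. In Spn28Dc, nec, Spn43Ad and Spn43Ab alike, NB replicate 1 was above NB replicate 2, by 1.74-fold to 4.41-fold.

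Other serpins have no role that is given here. Spn55B had 174, 74.4 and 169 CPM in LB-flies, against 93.7 and 85.4 CPM in NB-flies. LB replicate 2 was the lowest of the 5 libraries and the other LB libraries the highest, with a log2 fold change of 0.64 (SE 0.36). DESeq2 called Spn55B only when LB replicate 2 was left out (adjusted p = 0.0378).

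Spn28Da had 11.7, 33.9 and 34.8 CPM in LB-flies, against 13.5 and 25.9 CPM in NB-flies. Replicate 1 was the low library in both groups, and the log2 fold change was 0.44 (SE 0.51), or 0.80 without LB replicate 1. Spn47C had 2 tested transcripts. NM_001299373.1 had 6.80, 7.27 and 8.09 CPM in LB-flies, against 7.61 and 5.52 CPM in NB-flies, a log2 fold change of 0.17 (SE 0.21). NM_136789.4 had 0.458, 0.999 and 0.632 CPM in LB-flies, against 0.725 and 0.422 CPM in NB-flies, with 11 to 22 reads a library and a log2 fold change of 0.27 (SE 0.48). Both overlapped between the groups, as did Spn31A, Spn85F and Spn100A, whose log2 fold changes were -0.15, 0.42 and 0.20. That of Spn85F was 0.71 without LB replicate 1.

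The serpins described in seminal fluid or the accessory gland had 7 members by the rule: Spn28B, Spn28F, Spn38F, Spn53F, Spn75F, Spn77Bb and Spn77Bc. They showed no common difference between the groups. However, all 6 other than Spn28B, which had hardly any reads, had their lowest level in the replicate 1 library of LB-flies. That library was the lowest for 4 of the 22 remaining serpin transcripts (18.2%, against 22.5% of all tested transcripts). NB replicate 2 was the lowest for 13 of these 22, against 3516 of all 17337 tested transcripts. Spn28F had 250.5, 1084 and 1387 CPM in LB-flies, against 669 and 827 CPM in NB-flies. Spn77Bb had 187, 746 and 1040.5 CPM in LB-flies, against 671 and 651 CPM in NB-flies. In both genes LB replicate 1 was the lowest and LB replicates 2 and 3 were the highest of the 5 libraries, and the NB libraries lay between. The log2 fold changes were 0.28 (SE 0.64) for Spn28F and -0.01 (SE 0.62) for Spn77Bb.

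Spn38F, Spn53F, Spn75F and Spn77Bc had the same order, with log2 fold changes of -0.17 to 0.18. Their highest LB library was 3.25-fold to 11.8-fold above LB replicate 1. The 11.8-fold was that of Spn77Bc, which had 6 reads in LB replicate 1. Spn28B had 1, 1 and 2 reads in LB-flies and 2 and 5 reads in NB-flies, which is too few for a fold. Over the 7 the median log2 fold change was -0.01. It was 0.44 without LB replicate 1, with 6 of 7 above 0, and -0.28 without LB replicate 3, with 0 of 6 above 0. DESeq2 called Spn28F only without LB replicate 1 (adjusted p = 0.0485). Without NB replicate 2 it was 0.31, with 5 of 6 above 0. In limma-voom it was -0.27, with 1 of 7 above 0, so that no direction can be given for these serpins.

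The low level in LB replicate 1 was shared by other accessory gland genes. Summed over the 7 genes they had 526, 2113 and 2720 CPM in LB-flies and 1514 and 1712 CPM in NB-flies. The 18 accessory gland markers summed to 2889, 6978 and 7956 CPM in LB-flies and 5058 and 4980 CPM in NB-flies. The ratio of these sums was 0.182, 0.303 and 0.342 in LB-flies and 0.299 and 0.344 in NB-flies, so that it was low in LB replicate 1 and similar elsewhere. Relative to each gene's mean over the libraries, the 6 seminal serpins other than Spn28B had 0.13 to 0.443 in LB replicate 1. The lowest, 0.13, was Spn77Bc, with 6 reads in that library. Of the markers, 17 had 0.323 to 0.968 there, so that the ranges overlap. The medians of the serpins and of the markers were 0.322 and 0.597 in LB replicate 1, and 1.24 for both sets in LB replicate 2. They were 1.49 and 1.3 in LB replicate 3, 0.822 and 0.888 in NB replicate 1, and 1.09 and 0.967 in NB replicate 2. The part of the amount of gland tissue in these values was not tested.

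**Figure D4:**
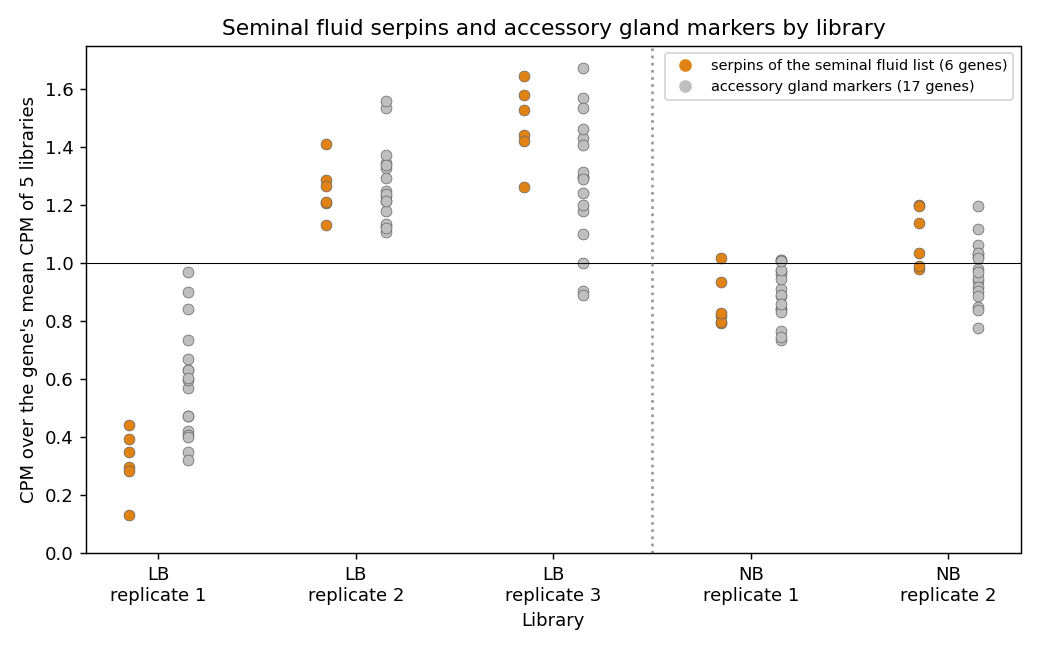
Level of seminal serpins and of accessory gland markers relative to each gene's mean over the 5 libraries, with the LB libraries left of the NB libraries. In LB replicate 1 the serpins lie at 0.13 to 0.443 and the markers at 0.323 to 0.968, while in the other libraries both lie between 0.733 and 1.67. The point at 0.13 is Spn77Bc, from 6 reads.

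The genes upstream and downstream of the serpins were read from a list of 26 names of recognition proteins, proteases and prophenoloxidases, of which 24 matched a gene and 19 genes had 22 tested transcripts. Of these, 12 had a log2 fold change above 0 and 10 below, with a median of 0.06. Of the 22, 0 were called by edgeR or DESeq2, and 1 passed an unadjusted p under 0.05, or 4.55% against 7.57% of all transcripts. In 1 transcript all LB libraries were above the NB libraries (14.8% of all transcripts) and in 1, of the protease modSP, below (13.1%). Together these were 9.09% of the 22, against 27.9% of all transcripts. The lowest p was that of PPO3, a prophenoloxidase of lamellocytes, with 3.55, 3.41 and 3.25 CPM in LB-flies, against 2.22 and 2.26 CPM in NB-flies. Its groups did not overlap (log2 fold change 0.60, SE 0.20, unadjusted p = 0.0233, adjusted p = 0.625 in edgeR's quasi-likelihood test).

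Next by p were the proteases Hayan, with a log2 fold change of 1.45 (SE 0.69), and psh, which encodes Persephone, with -0.38 (SE 0.21). PGRP-SD and PGRP-SA, recognition proteins for peptidoglycan, followed with 1.26 (SE 0.83) and 0.50 (SE 0.41). All 4 overlapped between the groups, and PGRP-SD had 132, 67.6 and 52.0 CPM in LB-flies, against 61.9 and 8.13 CPM in NB-flies. The peptides that Toll induces, at the far end of the pathway, summed to 8095, 9953 and 6510 CPM in LB-flies, against 4316 and 2386 CPM in NB-flies. Of their 19 tested transcripts 18 had a log2 fold change above 0 (94.7%, against 47.4% of all transcripts) and DESeq2 called 7 (36.8%, against 0.438%). edgeR called 0, and 13 passed an unadjusted p under 0.05 (68.4%, against 7.57%), 12 of them higher and 1 lower in LB-flies.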

How the data were processed

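Males of 3 LB and 2 NB vials were sequenced as stranded 100 bp single-end reads. The authors trimmed them with Trim Galore 0.6.1 and Cutadapt 2.10, mapped them to dm6, with repeats masked, by HISAT2 2.2.1, and counted reads with HTSeq 0.13.5. The deposited values are whole-number counts of reads per RefSeq transcript, without normalization. Reads that fit several transcripts (53.9 to 56.5% of the records) are in no count, and the 5 summary lines of each library were left out.

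Symbols and positions came from the RefSeq gene table of Release 6 plus ISO1 MT, matched for 33899 of 34111 transcripts, and exons from Ensembl. Transcripts with at least 10 reads summed over the libraries were normalized by TMM and tested in all 5 libraries, without covariates, by edgeR 4.0.16 (R 4.3.3), as a quasi-likelihood test with Benjamini-Hochberg adjustment and an FDR of 0.05. The fit was tested on simulated data. Alternatives were DESeq2 1.42.0 with its default filtering, limma-voom (limma 3.58.1), other scalings and filters, transcripts summed per gene, replicate blocks and each library left out. DESeq2 without each library and a crossed block were added on seeing the data. Members, gene lists and the naming rule were chosen with earlier results of these data known. Each library is given for serpins that passed an unadjusted p under 0.05, the 10 with the largest log2 fold change, the 5 most abundant, those with a described role and those of genes with several tested transcripts. From the cascade list up to 5 transcripts with the smallest p are named. Of the listed names spheroide, Dm-IM and Npl matched no gene, and 1 further peptide name that matched an unrelated gene was dropped.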

Additional observations from a re-analysis of the deposited data

How the results depend on the processing

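The count of serpins called was 0 in edgeR's quasi-likelihood test under every scaling, filter, block and left-out library tried and in limma-voom, 1 in DESeq2, and 1 to 2 in DESeq2 with each library left out. For the cascade list it was 0 to 1 in DESeq2 with each library left out and 0 elsewhere. The median log2 fold change of the serpins ranged from 0.13 to 0.48 over these settings. The log2 fold change of Spn77Bb turned to 0.00165 in DESeq2 and 0.00162 with DESeq2's size factors, and in limma-voom those of Spn28F, Spn38F and Spn43Ad to -0.047, -0.11 and 0.092. The labels number the vials but do not say that the numbers pair them, and deviations of same-numbered libraries correlated at -0.17 and 0.02 by repeat number and at -0.17 and -0.20 by the number in the library name. With a replicate block 0 serpins were called, and the signs that turned were, by repeat number, those of Spn28F (-0.51), Spn75F (-0.29), Spn38F (-0.35) and Spn31A (0.0999), and by library name and with crossed numbers those of Spn28F (-0.34 in both), Spn75F (-0.20 in both), Spn38F (-0.43 in both), Spn43Ad (0.046 and 0.044) and the Spn47C transcript NM_136789.4 (-0.055 and -0.052). All 7 seminal serpins were then below 0, with a median of -0.60 by repeat number and -0.49 by library name. With each library left out in edgeR and DESeq2, the log2 fold change ranged from -0.51 to 0.45 for Spn77Bb, -0.17 to 0.74 for Spn28F, -0.56 to 0.27 for Spn43Ab, -0.66 to 0.98 for Spn43Ad, -0.24 to 0.48 for Spn38F, -0.39 to 0.39 for Spn53F, -0.12 to 0.56 for Spn75F, -0.71 to 0.38 for Spn77Bc, -0.31 to 0.099 for Spn31A, -0.020 to 0.36 for Spn100A, -0.31 to 5.29 for Spn42De, -0.10 to 0.42 for Spn88Ea, -0.048 to 0.45 for the Spn47C transcript NM_001299373.1 and -0.093 to 0.75 for NM_136789.4. The cause of these turns was not tested. At 11 to 22 reads, as for NM_136789.4, depth limits the values.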
